A study of Mus musculus with 18 samples.

Results

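T23 is a mouse tumour cell line, named as adenocarcinoma cells in a series on prostate cancer. The level of each gene in T23 cells grown alone, without fibroblasts and without a drug, is described here. The members are the 3 libraries whose labels name T23 tumour cells and nothing else, of 18 libraries in the series, with all 55487 genes that each library lists. The other 15 libraries hold T23 cells with fibroblasts, enzalutamide or isoliquiritigenin and are not set against these. The labels give no genotype, strain, passage, medium or androgen supply for T23, and they do not say whether the 3 replicates are separate cultures. The spreads given as SD are between these 3 libraries (n = 3) and may be technical.

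Prostate adenocarcinoma arises from the glandular epithelium of the prostate. Luminal cells of that epithelium make secretory proteins in response to androgen and carry simple keratins and E-cadherin, while basal cells carry other keratins and p63. Stromal cells around the glands, mainly fibroblasts and smooth muscle, make the collagens, fibronectin and other proteins of the extracellular matrix. Neuroendocrine prostate cells are rare and are recognised by chromogranins, synaptophysin and regulators such as Insm1. SPARC, named in the title of the series, is a secreted matricellular glycoprotein that binds collagen.

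Library totals were 22.4, 20.4 and 19.7 M counts, with 19578, 19162 and 19203 genes above 0. CPM is a count divided by the library total in M (mega, the M of CPM and TPM). TPM is a scale of transcripts per M in which each count is first divided by the length of the gene's exons, so that different genes can be compared. A gene was called present when it had at least 1 CPM in each of the 3 libraries. By this rule 11773 of 55487 genes were present (21.2%), and of 21974 protein-coding genes 11267 were present (51.3%). A further 6844 protein-coding genes (31.1%) had 0 counts in all 3 libraries. Where a library has 0 counts, a true level of up to 3 counts (0.134 to 0.152 CPM) remains possible, and a gene with at most 3 counts in each library is called at the floor. Most present genes stood between 10 and 100 CPM (6727 genes), 2349 between 100 and 1000 CPM, and 81 at 1000 CPM or more. Those 81 genes took 17.6% of all counts.

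By CPM, which favours long genes, the most abundant messages of T23 cells were those of collagens, fibronectin, translation factors and cytoskeleton. Col1a1, a chain of type I collagen, had 11282, 11050.0 and 11188 CPM. Col1a2, the other chain of that collagen, had 11038, 10381 and 10859 CPM, and the ranges of the 2 genes did not overlap. Fn1, which encodes fibronectin, had 9114, 9163 and 9540.2 CPM. Eef1a1 and Eef2, the elongation factors of translation, averaged 7747 ± 33.1 and 6585 ± 61.5 CPM. Col3a1, the chain of type III collagen, followed with 5256, 5026 and 4993 CPM. Vim, the intermediate filament of mesenchymal cells, had 4151, 4100.2 and 4210 CPM, and Sparc had 3329.8, 3315 and 3286 CPM. Each of these genes stood at a nearly equal level in the 3 libraries.

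**Figure D1:**
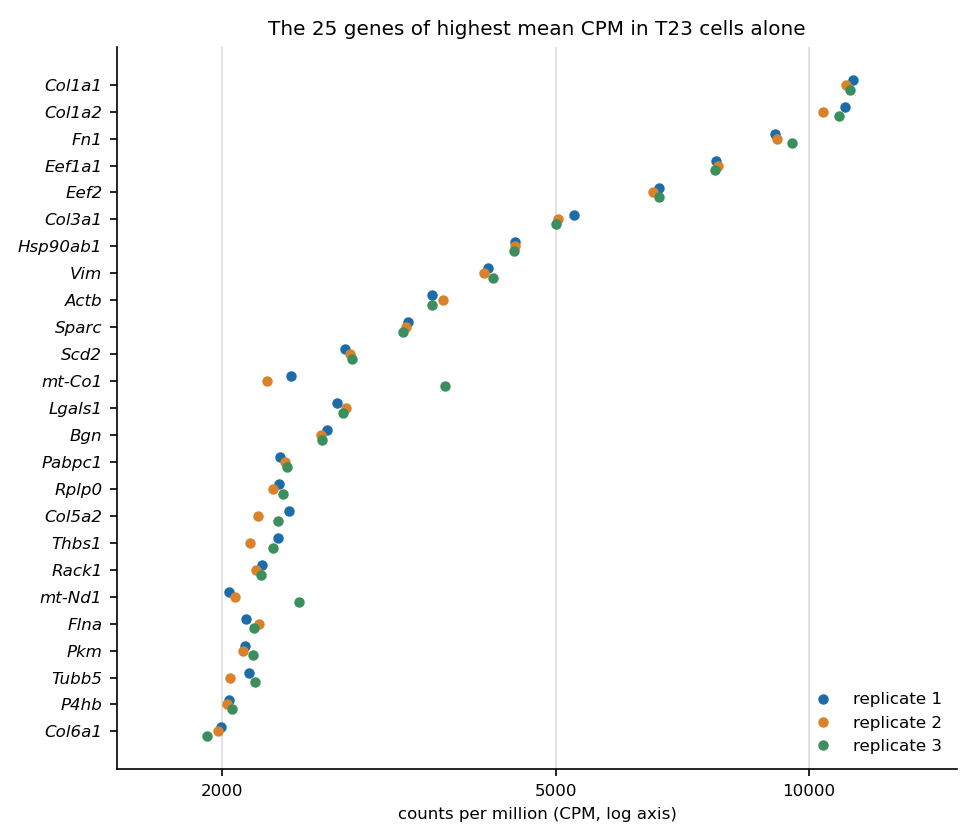
CPM (log axis) of the 25 genes of highest mean CPM, with 1 point per library. Col1a1, at a mean of 11173 CPM, stands at the top and Col6a1, at 1965 CPM, closes the list. The points of replicate 3 stand apart for mt-Co1 (3689 CPM, with 2414 and 2266 CPM in the other libraries) and less so for mt-Nd1 (2468 CPM, with 2039 and 2075 CPM).

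Per length the order changed. Eef1a1 averaged 11889.9 ± 87.2 TPM and Lgals1, the secreted lectin galectin-1, 11783 ± 76.5 TPM. The ranges of these 2 genes overlapped, so their order is not resolved. Col1a1 came seventh with 6514 ± 104 TPM, below mt-Nd1, Rplp1, Eef2 and mt-Co1. The ranges of mt-Co1 and Col1a1 overlapped, and mt-Co1 was above Col1a1 in replicate 3 alone. S100a6, a calcium-binding protein, averaged 4540.2 ± 126 TPM and B2m, the light chain of MHC class I, 4358 ± 40.6 TPM, again with overlapping ranges. Vim (3351 ± 47.8 TPM), Sparc (3344 ± 41.5 TPM) and Col1a2 (3313 ± 120 TPM) were neighbours whose ranges overlapped. Among the 25 genes of highest TPM, 16 of the 24 neighbouring pairs overlapped. Mir6236 (4327 TPM) and Gm23935 (4195 ± 1762 TPM) also fell in this list, but they are 123 and 57 bases long, so their TPM rests on few bases. Of the bases of Eef1a1, cut into words of 31, 51.5% also occur in other genes. The share was 75.1% for Rplp1, 63.9% for mt-Co1 and 100% for Gm23935, so reads of these genes and their copies could be exchanged. For Col1a1, Vim and Sparc the share was 0.05%, 0.19% and 1.65%.

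Counts were spread over many genes. The 10 genes of highest CPM took 6.61% ± 0.0599 of the counts, the top 100 took 19.4% ± 0.241 and the top 1000 took 51.6% ± 0.198. Collagen chains together held 3.78% ± 0.0725 and the proteins of the cytosolic ribosome 4.4% ± 0.00981. Protein-coding genes held 99.3% of the counts, keratins 0.00781% ± 0.000392. Families of other tissues gave the level of stray counts: 1 of 1093 olfactory receptors, 1 of 329 vomeronasal receptors, 0 of 42 beta-defensins and 0 of 22 major urinary proteins were present.

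Of 11 fibrillar collagen genes 8 were present (72.7%), and of 33 other collagen genes 15 (45.5%), the second share being under the 51.3% of all protein-coding genes. The collagens stood apart by the levels of the members below more than by how many were present. Col5a2, a chain of the collagen that sets fibril width, averaged 924 ± 45.2 TPM and its partner Col5a1 489 ± 9.98 TPM. The ratio of Col1a1 to Col1a2 in TPM was 1.94, 2.02 and 1.95. In CPM these genes were close, with means of 11173 and 10759, so the ratio rests on the exon lengths used (6563 and 12426 bases). Lengths are the same in all libraries, so the spread of this and other TPM ratios does not cover the choice of length. Col6a1 stood at 2.93 ± 0.0426 times the TPM of Col6a2. Among basement membrane collagens, Col4a1 had 419 ± 4.33 TPM and Col4a2 309 ± 8.32 TPM. Of the collagens known from cartilage, Col2a1 had 5, 2 and 2 counts and Col9a1 none, while Col11a1 had 129, 118 and 129 CPM and Col10a1 and Col9a3 were present under 5 CPM. Col6a6 and Col13a1 also had 0 counts in all 3 libraries.

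**Figure D2:**
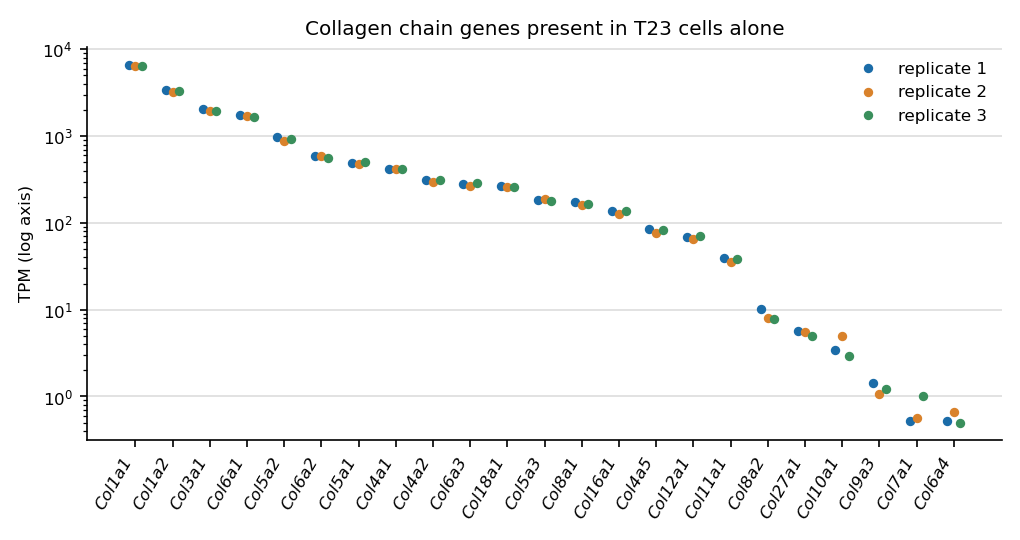
TPM (log axis) of the 23 collagen chain genes that were present, ordered by mean, with 1 point per library. The genes run from Col1a1 at 6514 TPM to Col6a4 near the bottom of the axis, and the chains of type I, III, V and VI collagen take the first 7 places.

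The enzymes that make and cross-link collagen stood beside it, with 24 of 26 present (92.3%), beside 51.3% of all protein-coding genes. Serpinh1, the collagen chaperone HSP47, had 1892, 1894 and 1906 CPM (2972 ± 15.3 TPM). P4hb, a subunit of prolyl hydroxylase, had 2038, 2030.4 and 2056 CPM. Lox, the lysyl oxidase that cross-links fibrils, had 1591, 1425 and 1616 CPM. Pcolce, Loxl1, P4ha1 and Fkbp10 averaged 784 ± 23.9, 611 ± 18.1, 549 ± 29.5 and 423 ± 9.54 TPM. Of matricellular and elastic fibre genes 31 of 36 were present (86.1%). They were led per length by Sparc, Fn1, Thbs1 (1427 ± 62.7 TPM) and Spp1, which encodes osteopontin (1355 ± 82.3 TPM). Eln, the gene of elastin, had 1, 3 and 2 counts although the microfibril gene Fbn1 averaged 590 ± 31 CPM, and Thbs4 had none. Bgn, the small proteoglycan biglycan, had 2665, 2627 and 2631 CPM, Dcn (decorin) 308 ± 8.62 CPM, and Lum (lumican) 3, 0 and 0 counts. Of metalloproteinases and their inhibitors 12 of 22 were present (54.5%), a share near that of all protein-coding genes. The inhibitor Timp2 led them (1551 ± 36.6 TPM). Mmp2 and its membrane-bound activator Mmp14 averaged 427 ± 12.1 and 396 ± 10.2 TPM. Mmp7, Mmp8 and Mmp13 had 0 counts. Of 16 laminin and basement membrane genes 13 were present (81.25%), with Nid1 at 436 ± 12.6 TPM.

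Of the cell type lists, that of fibroblasts and mesenchyme had the most members present. Of its 30 genes 26 were present (86.7%), with a median of 443 CPM, against a median of 1.78 CPM over all protein-coding genes. Beyond the genes above it held Pdgfra, the receptor that marks fibroblasts, at 1196, 1114 and 1149.95 CPM, Postn (periostin) at 937 ± 67.6 CPM and Fbln2 at 1853 ± 74.7 CPM. The 4 members not present were Tcf21 (0 counts), Lum, Pi16 and Dpp4 (each at the floor). Smooth muscle and myofibroblast genes were split, with 9 of 14 present (64.3%), beside 51.3% of all protein-coding genes. Of the 14, 7 stood at 10 CPM or more and 4 at 100 CPM or more. Cald1 was the highest, at 1206 CPM. Acta2, smooth muscle actin, had 352, 401 and 368 CPM, whereas Tagln had 2.9, 2.64 and 2.49 CPM, Myh11 0, 0 and 1 count, and Myocd, the master regulator of smooth muscle, none.

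**Figure D3:**
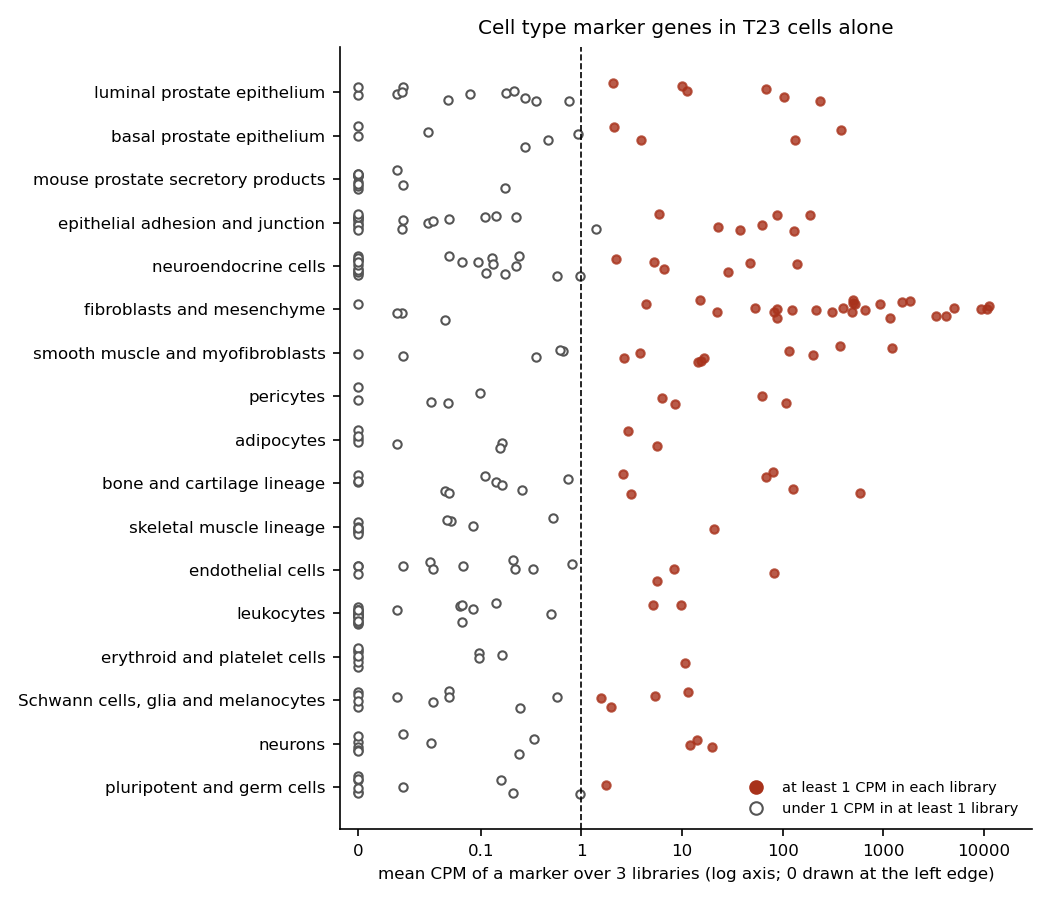
Mean CPM over 3 libraries of each marker gene (log axis, 0 drawn at the left edge), with 1 row per cell type list. Filled points are genes with at least 1 CPM in each library and the dashed line stands at 1 CPM. The fibroblast and mesenchyme row has 26 of 30 genes filled and reaches 11173 CPM, while the row of prostate secretory products has 0 of 12.

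Several defining markers of the labelled cell type, E-cadherin and Epcam among them, were at or near 0. Of 26 genes of epithelial adhesion and junctions 7 were present (26.9%), beside 51.3% of all protein-coding genes. Cdh1 (E-cadherin) had 5, 3 and 1 counts and Epcam 1, 1 and 1. The desmosome genes Dsp, Dsc2 and Dsg2, the proteases and inhibitors St14, Spint1 and Spint2, and Marveld2, Grhl1, Ovol1 and Ehf had 0 counts in all 3 libraries. The 7 junction genes present included Tjp1, Jup, Cdh3, Cgn, F11r and Pkp3. Tjp1 and Jup, which also serve the junctions of other cells, averaged 186 ± 3.5 and 130 ± 5.19 CPM. Cdh3 (P-cadherin) had 87.9, 91.4 and 85.1 CPM, and Cdh2 (N-cadherin) 66.5, 63.1 and 66.3 CPM. Per length Cdh3 stood at 2.49 ± 0.159 times Cdh2, a ratio that rests largely on the exon lengths used (4384 and 8066 bases). Among cadherins, Cdh3, Cdh2, Cdh13, Cdh11, Cdh17, Cdh10 and Cdh6 were present, 7 of 13 (53.8%), a share near that of all protein-coding genes.

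Of 18 luminal prostate markers 6 were present (33.3%), beside 51.3% of all protein-coding genes. Of the 6, 2 stood at 100 CPM or more, and 5 are described here. Ly6a (Sca-1) averaged 233 ± 10.4 CPM and Sox9 68.4 ± 6.51 CPM, and both are also known in cells outside the prostate. Krt7 and Krt19 stood at 11.1 ± 1.04 and 9.89 ± 0.784 CPM, and Hoxb13, a factor of the prostate and hindgut, at 2.08 ± 0.172 CPM. Krt8 had 9, 6 and 7 counts and Krt18 4, 6 and 7, which is under 1 CPM in each library. Cldn3 had 0 counts, and Foxa1 had 2, 4 and 7. Of 10 basal markers 4 were present (40%). Dst (dystonin) and Itga6, which are also known outside epithelia, averaged 379 ± 16.6 and 133 ± 5.19 CPM. Trp63 had 4.77, 2.79 and 4.07 CPM and Itgb4 averaged 2.09 ± 0.389 CPM, while Krt5 had 2, 0 and 0 counts and Krt17 and Dsg3 none. None of 12 secretory products of the mouse prostate was present, and 9 of them, Pbsn (probasin), Sbp, Msmb, Spink1, Defb50, Svs2, Svs4, Svs5 and Azgp1, had 0 counts. Only 4 of 53 keratin genes were present, and the highest of the listed keratins was Krt80, with 48.7, 50.8 and 54.9 CPM. Vim stood at 165 ± 14.1 times the TPM of Krt19.

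Of 27 genes of steroid hormone synthesis and response 16 were present (59.3%), beside 51.3% of all protein-coding genes. The corepressor Ncor1 averaged 205 CPM, and Fkbp4, a chaperone of steroid receptors, 262 ± 5.96 CPM. Nr3c1, the glucocorticoid receptor, averaged 160 ± 5.00 CPM, which per length is 79.5 ± 2.89 TPM. Tmprss2, an androgen-regulated protease of prostate epithelium, had 8, 0 and 4 counts. Cyp17a1, Cyp11a1, Hsd3b1 and Hsd17b3, enzymes of steroid synthesis, had 0 counts, as did Esr2 and Klk1b24. Fkbp5, another androgen and glucocorticoid target, averaged 63.7 ± 2.84 CPM.

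Of 28 neuroendocrine genes 6 were present (21.4%), beside 51.3% of all protein-coding genes. Ncam1, an adhesion molecule also found on other cells, had 138, 137 and 138 CPM. Eno2 and Uchl1, enzymes abundant in neurons, averaged 46.8 ± 3.01 and 28.4 ± 1.72 CPM. Cplx2, Stmn2 and Syt1 stood at 6.55 ± 0.440, 5.26 ± 0.206 and 2.21 ± 0.0601 CPM. The granule and fate genes Chga, Insm1, Neurod1, Scg2, Scg3, Sst, Calca, Pcsk2, Nkx2-1 and Dll3 had 0 counts in all 3 libraries, Chgb had 1, 1 and 1, and Syp had 3, 1 and 4. In bulk RNA a low level in all cells and a high level in few cells cannot be told apart. Of 12 neuron genes 3 were present (25%), Tubb3, Map2 and Gap43, each between 8.96 and 20.2 CPM. Rbfox3, Nefh, Elavl3, Elavl4 and Gad1 had 0 counts.

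In the lists of other lineages the share present ran from 8% (leukocytes) to 44.4% (pericytes), beside 51.3% of all protein-coding genes. Of 25 leukocyte genes 2 were present, Cd14 (9.74 ± 1.23 CPM) and Cd68 (5.18 ± 0.786 CPM). Another 16, among them Cd3e, Adgre1 and Spi1, had 0 counts, and Ptprc (CD45) had 1, 0 and 0. Of 14 endothelial genes 3 were present, Flt1 (82.6 ± 2.08 CPM), Egfl7 and Kdr, while Pecam1 had 11, 5 and 5 counts and Cldn5, Emcn and Sox17 had 0. Of 11 erythroid and platelet genes Itga2b alone was present (10.8 ± 1.51 CPM). Of 12 skeletal muscle genes Pax3 alone was present, at 19.5, 21.4 and 21 CPM, while Pax7, Myf5, Myod1 and Myog had 0 counts. Of 9 adipocyte genes Fabp4 and Cebpa were present, each under 10 CPM, and Plin1, Cidec, Lep and Cfd had 0 counts. Of 9 pericyte genes 4 were present, with Notch3 at 109 ± 2.72 CPM and Abcc9 and Higd1b at 0 counts. Of 16 bone and cartilage genes 6 were present (37.5%). These were Spp1 (589, 615 and 546 CPM), Col11a1, Runx2 (80.7 ± 2.58 CPM), Sox9, Col10a1 and Acan, while the osteoblast products Alpl, Bglap and Ibsp had 0 counts. Of 14 genes of Schwann cells, glia and melanocytes 4 were present, each at 12.5 CPM or less, and Sox10, Foxd3, Tyr and Dct had 0 counts. Of 11 genes of pluripotent and germ cells Dppa3 alone was present (1.74 ± 0.404 CPM), and Pou5f1, Lin28a, Zfp42, Utf1, Ddx4 and Dazl had 0 counts.

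Y-linked genes and Xist were both at 0. Kdm5d, Uty, Eif2s3y, Zfy1, Zfy2, Sry, Usp9y and Uba1y had 0 counts in all 3 libraries, and Ddx3y had a single count, in replicate 3. Of 175 protein-coding genes on the Y chromosome 172 had 0 counts. The 136 counts there came almost wholly from Gm47283 (42, 52 and 39 counts), 46.8% of whose words also occur in other genes. Xist, the RNA that coats the inactive X chromosome, and its antisense partner Tsix also had 0 counts. The X-linked homologues of the Y genes were present, with Ddx3x at 427 ± 15.7 CPM, Kdm5c at 129 ± 4.27 CPM, Eif2s3x at 44.0 ± 1.42 CPM and Kdm6a at 37.9 ± 1.84 CPM.

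Hox genes, whose order along each cluster follows the order of their domains along the body, were present for 20 of 39 members. Of all protein-coding genes 51.3% were present, so the number of Hox genes present does not set them apart. The Hoxa cluster held most of the level, with a sum of 214 ± 0.918 TPM over 11 genes. The sums were 41.8 ± 2.24 TPM over 10 Hoxb genes, 37.9 ± 3.82 TPM over 9 Hoxd genes and 9.33 ± 0.748 TPM over 9 Hoxc genes. Hoxa11 had 72.6, 73.6 and 70.8 TPM, and Hoxa10 had 57.3, 54.7 and 57.6 TPM, ranges that did not overlap. Hoxa7 and Hoxa13 followed at 22.2 ± 0.891 and 21.9 ± 1.33 TPM, with overlapping ranges. Of the Hoxd cluster, Hoxd8 (25.3 ± 2.08 TPM) and Hoxd9 (11 ± 1.84 TPM) were present, while Hoxd12 had 0 counts, as did Hoxd3, 62.3% of whose exon bases another gene on the same strand overlaps, and Hoxd10 and Hoxd11 1 count each in the 3 libraries together. Hoxc11, Hoxc12 and Hoxc13 had 0 counts.

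**Figure D4:**
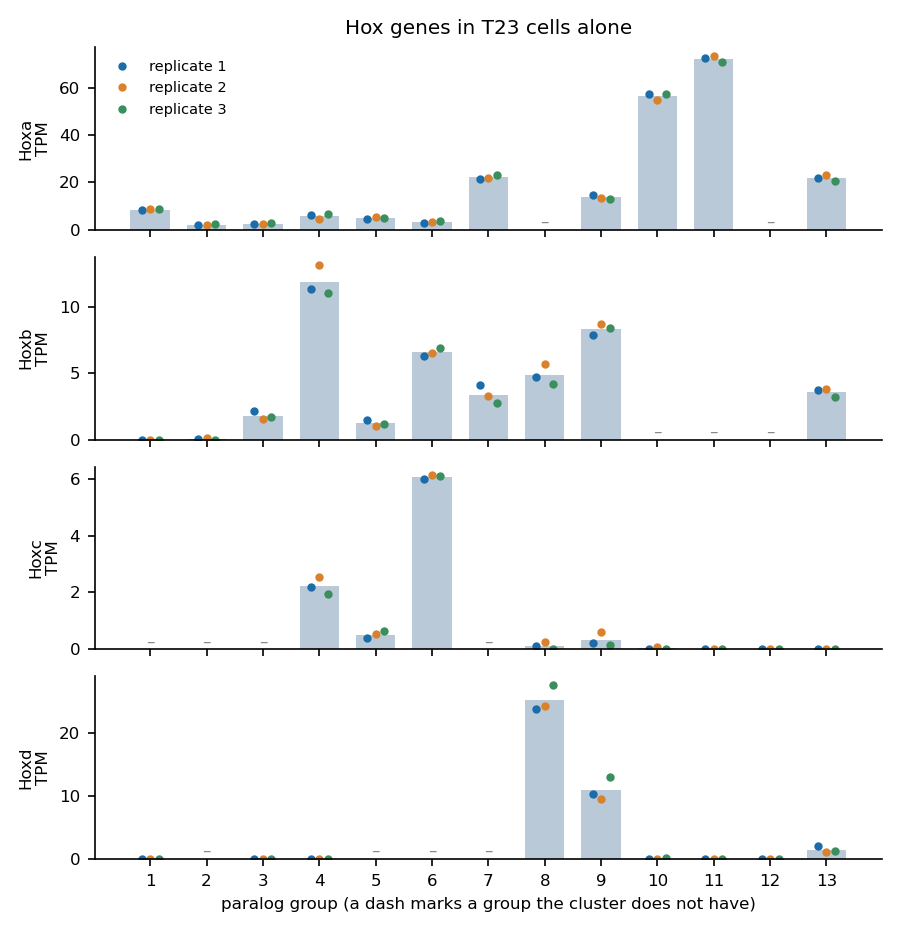
TPM of the Hox genes by cluster and paralog group, with bars for the mean over 3 libraries, points for the libraries, and a separate linear scale per cluster. Hoxa11 (72.3 TPM) and Hoxa10 (56.5 TPM) stand above the rest of the Hoxa cluster. In the Hoxd cluster paralog groups 8 and 9 stand above the others.

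Of 15 factors of the epithelial-mesenchymal transition 11 were present (73.3%), and the 4 that were not are the epithelial side of the list: Grhl2 (6, 2 and 6 counts), Esrp1 (0, 0 and 1), Ovol1 and Ovol2 (0). Tcf3, Prrx1 and Twist1 led per length with 163 ± 3.59, 137 ± 4.48 and 123 ± 1.16 TPM. Snai1, Zeb1 and Snai2, repressors of E-cadherin, averaged 92.1 ± 5.48, 53 ± 0.328 and 49.9 ± 2.75 TPM. Of 58 developmental factors of mesoderm, the urogenital tract and stroma 36 were present (62.1%), beside 51.3% of all protein-coding genes. Hic1 (143 ± 12.7 TPM), Osr1 (113 ± 4.02 TPM), Foxf1 (90.4 ± 2.26 TPM), Klf4 (84.5 ± 3.82 TPM) and Tbx15 (58.2 ± 1.95 TPM) were among the highest, while Wt1, Pax2, Lhx1, Hand1, Eya2, Foxl2, Barx1, Alx4, Tcf21 and Nkx6-1 had 0 counts. All 18 listed factors of the AP-1, SRF and YAP pathways were present. Wwtr1 (TAZ) averaged 234 ± 4.96 TPM, Fosl2 218 ± 6.26 TPM and Jun 200 ± 5.03 TPM.

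Of 30 tumour suppressor genes 27 were present (90%), beside 51.3% of all protein-coding genes. The exceptions were Cdkn2a and Cdkn2b, inhibitors of the cyclin D kinases that lie side by side on chromosome 4, with 0 counts in all 3 libraries, and Cdkn1c with 1, 0 and 1 counts. The nearest protein-coding gene on one side, Mtap, had 554, 557 and 555 CPM, so the zero values did not extend to it. On the other side Dmrta1 had 0 counts. Whether the DNA of this locus is intact was not measured. Trp53, the gene of p53, had 189, 197 and 186 CPM, and of 20 p53 target genes 19 were present, with Perp, a desmosome protein of epithelia, as the exception (8, 10 and 11 counts). Cdkn1a (p21) averaged 316 ± 5.25 TPM, Ccng1 431 ± 13.9 TPM and Phlda3 354 ± 29.3 TPM. Rb1 averaged 15.8 CPM, and among the 27 present members of the list it was the lowest in CPM. Counts over exons do not show whether the messages of Trp53 or Rb1 carry mutations.

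Of 40 oncogenes and growth regulators 39 were present (97.5%), beside 51.3% of all protein-coding genes. Erg was the exception, with 1, 1 and 0 counts. Cdk4 averaged 485 ± 8.28 TPM, Ctnnb1 (beta-catenin) 440 ± 6.64 TPM, Hmga1 433 ± 21.5 TPM and Ccnd1 (cyclin D1) 425 ± 4.54 TPM. Myc averaged 111 CPM. All 21 DNA replication genes and all 22 mitosis genes were present. Mki67, the Ki-67 marker of cycling cells, had 394, 373 and 410 CPM, and Top2a 621, 604 and 619 CPM. Pcna (195 ± 8.73 TPM), Mcm3 (175 ± 4.77 TPM) and Mcm5 (172 ± 3.14 TPM) led the replication list per length. These are levels, and no rate of division was measured.

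Of 50 receptor tyrosine kinases 31 were present (62%), beside 51.3% of all protein-coding genes. Axl, the receptor for Gas6, had 1236, 1201 and 1233 CPM (930.2 ± 18.9 TPM). Pdgfra averaged 440 ± 18.3 TPM, 2.95 ± 0.0988 times the TPM of Pdgfrb. Ryk, Ddr2, Fgfr1 and Met, the receptor of hepatocyte growth factor, averaged 245 ± 2.45, 207 ± 4.62, 168 ± 4.62 and 161 ± 2.10 TPM. Egfr averaged 84.7 ± 4.43 TPM. Erbb4, Fgfr4, Kit, Ntrk2, Ret, Alk, Ros1 and Ephb1 had 0 counts in all 3 libraries. Of 25 integrins 18 were present (72%). They were led by Itgb1 (921 ± 27.5 TPM), Itgb5 (671 ± 15.1 TPM), Itga5 (271 ± 2.22 TPM), Itga3 (197 ± 4.36 TPM) and Itgav (188 ± 4.55 TPM). These are subunits of receptors for fibronectin, vitronectin and laminin. Itgam had 0 counts, but 68.7% of its exon bases are overlapped by another gene on the same strand, so this 0 is uncertain.

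Of 28 cytokines and chemokines 15 were present (53.6%), a share near that of all protein-coding genes. Csf1, the growth factor of macrophages, had 845, 849 and 869 CPM (619 ± 7.57 TPM), and Ccl2, which attracts monocytes, averaged 599 ± 42.9 TPM. Cxcl12, a stromal chemokine, had 775, 799 and 733 CPM. Il1a, Il1b, Tnf, Cxcl2, Cxcl14 and Ccl20 had 0 counts, and Il6 had 8, 6 and 3. Of 64 growth factors and their antagonists 43 were present (67.2%), beside 51.3% of all protein-coding genes. Grem1, an antagonist of bone morphogenetic proteins, had 763, 752 and 708 CPM, and Angptl2, Tgfb3 and Inhbb averaged 267 ± 10.2, 173 ± 7.98 and 155 ± 10.1 TPM. Igf2, Fgf9, Bmp5, Bmp7, Shh and Dhh had 0 counts. Another gene on the same strand overlaps 62.8% of the exon bases of Igf2, where reads may have been left uncounted, so its 0 is uncertain. On the opposite strand 46.7% of the exon bases of Bmp5, 28.3% of Shh and 25.2% of Dhh are overlapped. The strand setting of the counting is not known, so these 0 values are less certain too. Of 7 IGF binding proteins 4 were present (57.1%): Igfbp6 (1167 ± 46.0 TPM), Igfbp4 (469 ± 18.3 TPM), Igfbp3 and Igfbp7. Igfbp1, Igfbp2 and Igfbp5 had 0 counts.

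Class I antigen presentation was present and class II was not. B2m had 968, 994 and 977 CPM, and the heavy chains H2-D1 and H2-K1 averaged 699 ± 3.61 and 651 ± 7.05 TPM. These heavy chains belong to a family of near-identical genes, so their counts are uncertain. H2-Aa and H2-Eb1 of class II had 0 counts, H2-Ab1 had 9, 4 and 3, and the class II activator Ciita 1, 0 and 0. Among checkpoint ligands Cd276, Pvr and Cd80 averaged 57.1 ± 1.67, 41 ± 1.12 and 37 ± 2.79 CPM and Cd274 (PD-L1) 3.11 CPM, and Pdcd1lg2, Cd86 and Ido1 had 0 counts. In all, 18 of 28 genes of this list were present (64.3%), beside 51.3% of all protein-coding genes.

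All 30 actin cytoskeleton genes were present, with Actb at 5133 ± 75.2 TPM, Tpm4 at 1747 ± 28.3 TPM and Cfl1 at 1281 ± 36.0 TPM. Of 26 intermediate filament genes, most of them keratins, 10 were present (38.5%), beside 51.3% of all protein-coding genes. Among the 10 were the lamins Lmna, Lmnb1 and Lmnb2 and the progenitor filament Nes (12.8 ± 1.32 CPM). Of 23 glycolysis genes 21 were present, led by Aldoa (1986 ± 68.4 TPM), Ldha (1900 ± 117 TPM) and Pkm (1639 ± 23.9 TPM), while the liver isoform gene Pklr had 0 counts. Gapdh averaged 1256 ± 41.4 TPM, with 28.1% of its words shared with other genes. Of 13 nutrient transporters 9 were present (69.2%), led by Slc2a1, the glucose transporter GLUT1 (307 ± 17.5 TPM), and Slc2a2 and Slc2a4 had 0 counts. All 15 endoplasmic reticulum chaperones and all 23 redox genes were present, with Calr at 1471 ± 46.4 TPM and Txn1 at 1800 ± 37.4 TPM. Of 17 lysosomal genes 16 were present, led by Psap at 2040 ± 25.9 TPM. Of 10 translation elongation genes 9 were present, and Eef1a2, the form of muscle and neurons, had 1, 0 and 0 counts. Of 8 genes reported in senescent cells 6 were present (75%).

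Non-coding genes held less than 1% of the counts in these poly(A)-selected libraries. The highest was the ribosomal RNA gene CT010467.1 (625, 828 and 582 CPM). Its counts are uncertain, since 70.4% of its words also occur in other genes and 73.9% of its exon bases are overlapped on the opposite strand. Cct6a came next, at 471 ± 7.65 CPM. It is classed as a processed transcript in the annotation used, although it is known as a chaperonin subunit gene. The mitochondrial ribosomal RNAs mt-Rnr2 (280 ± 19.6 CPM) and mt-Rnr1 (242 ± 8.78 CPM) followed. Rian, an imprinted RNA of the Dlk1-Meg3 region, averaged 225 ± 13.5 CPM, and Meg3 of the same region 92.3 ± 4.03 CPM. Gas5, Neat1 and Malat1 averaged 149 ± 7.64, 122 ± 4.19 and 112 ± 14.3 CPM. AI506816 (149 ± 4.83 CPM), Mir6236 (139 ± 5.77 CPM) and Zfp469, classed as a long intergenic RNA (163 ± 5.50 CPM), complete the 10 highest. Of 21 long non-coding and imprinted genes 16 were present (76.2%), beside 21.2% of all genes. Meg3 stood at 1.13 ± 0.00645 times the TPM of H19, another imprinted RNA. This ratio rests on the exon lengths used (18089 bases for Meg3), and its SD does not cover their choice.

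The 3 libraries were close to each other. Over 7491 genes of at least 20 CPM the median coefficient of variation was 3.13%. The median counting error expected from their mean counts was 2.74%. A coefficient taken from 3 libraries tends to fall below the true value, so these values understate the excess over counting error. Between pairs of libraries chi-square over its degrees of freedom was 2.59, 2.69 and 3.22, so each pair differed by more than counting error. The common biological coefficient of variation was 3.03% over 12529 genes. Of the 7491 genes 123 varied by more than 10% and 4 by more than 20%. Those 4 were Gm23935 (31.9, 78.0 and 77.9 CPM), mt-Co1 (2414, 2266 and 3689 CPM), Cebpb (19.9, 29.9 and 31.8 CPM) and mt-Cytb (1071, 1014 and 1452 CPM). Gm23935, all of whose words also occur in other genes, and Cebpb were low in replicate 1, and the mitochondrial genes were high in replicate 3. Replicate 3 also had the highest mitochondrial share of counts, at 1.11%, against 0.838% in replicate 1 and 0.824% in replicate 2. The next 6 by this measure were CT010467.1, Nr2f6, mt-Nd4, Ankrd37, Npy1r and Tmem158, with coefficients of 16.6% to 19.4%.

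**Figure D5:**
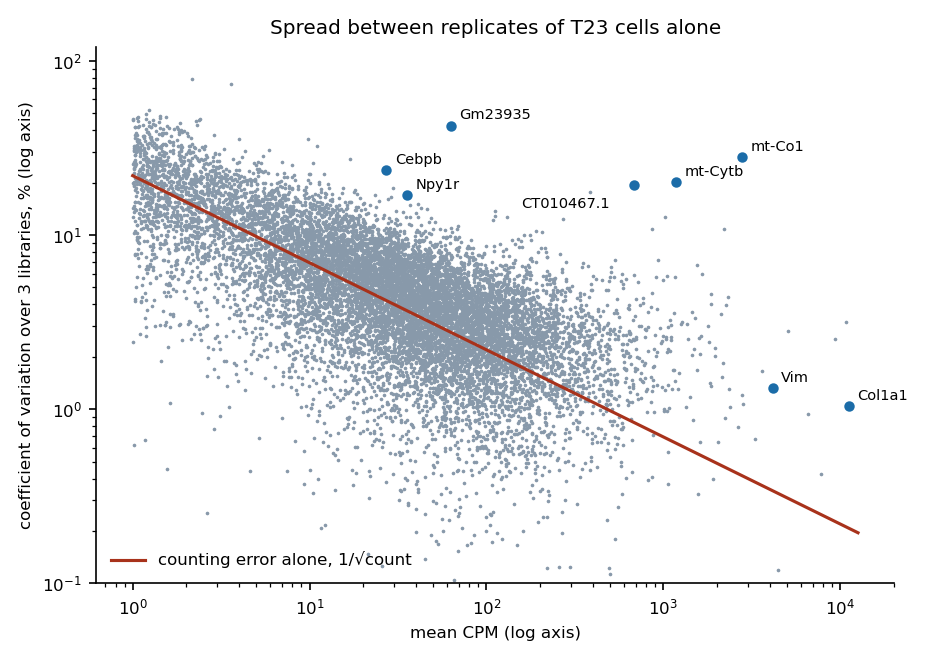
Coefficient of variation over the 3 libraries (%, log axis) against mean CPM (log axis) for genes of at least 1 CPM on average, with 1 grey point per gene, the spread of counting error alone as a line, and named genes in blue. Most genes lie around the line, Col1a1 and Vim lie near 1%, and Gm23935 stands highest of the named genes at 42.4%.

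To show what lies before genes at opposite ends of the range, the 90 bases ahead of 6 starts are printed, with each CG in capitals. CG pairs are the sites at which mammalian DNA is methylated and are rare outside promoters. The sequences are from RefSeq (GRCm38.p6), end at the RefSeq start or, for Cdkn2a, at the start in GENCODE M21, and read 5′ to 3′ on the strand of the gene. Col3a1 (5092 CPM) is at chr1:45311448-45311537 on the plus strand. Pdgfra (1154 CPM) is at chr5:75152161-75152250 on the plus strand. Axl (1224 CPM) is at chr7:25788734-25788823 on the minus strand. Epcam (1 count in each library) is at chr17:87635889-87635978 on the plus strand. Chga (0 counts) is at chr12:102554851-102554940 on the plus strand. Cdkn2a (0 counts) is at chr4:89294654-89294743 on the minus strand.
Col3a1: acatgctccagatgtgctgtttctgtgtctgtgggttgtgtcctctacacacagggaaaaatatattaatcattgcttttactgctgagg
Pdgfra: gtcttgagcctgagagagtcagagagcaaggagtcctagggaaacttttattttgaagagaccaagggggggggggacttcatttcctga
Axl: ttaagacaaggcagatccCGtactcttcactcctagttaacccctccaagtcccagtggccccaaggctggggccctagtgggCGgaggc
Epcam: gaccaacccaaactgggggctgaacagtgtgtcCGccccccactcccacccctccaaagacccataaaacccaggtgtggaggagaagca
Chga: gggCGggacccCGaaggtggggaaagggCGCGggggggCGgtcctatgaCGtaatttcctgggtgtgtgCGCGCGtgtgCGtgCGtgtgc
Cdkn2a: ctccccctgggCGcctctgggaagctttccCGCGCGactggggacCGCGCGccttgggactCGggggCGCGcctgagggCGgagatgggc

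In these stretches Col3a1 and Pdgfra had 0 CG pairs and Axl had 2, while Epcam had 1 and Chga and Cdkn2a had 11 each. Over the 250 bases before the start Col3a1 had 0, Pdgfra 4, Axl 5, Epcam 8, Chga 16 and Cdkn2a 40. CG reads the same on both strands, and no other motif was searched. At least 1 CG stood in the 250 bases of 93.0% of 16512 protein-coding genes with a window. The median number of CG was 17 in 8954 present genes and 3 in 7558 genes that were not present. Over the 250 bases these 6 genes run against the order of the medians, but they were chosen after their values were seen. Col1a2 (11), Vim (8), Krt8 (3) and Krt5 (2) followed the order of the medians among themselves, but other genes did not. Krt18 (12) and Syp (11), which were not present, had more CG than Sparc (4) and Bgn (7), which were. The RefSeq starts of Col1a2, Vim and Sparc lay 804, 384 and 3103 bases from the starts in GENCODE M21. Methylation was not measured, and a CG count is a property of the sequence only.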

How the data were processed

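Gene counts of T23 cells alone (3 libraries) were read as deposited by the authors. Per the labels' protocols, total RNA was isolated with a miRNeasy kit, and 500 ng went into a stranded poly(A) library read on a NextSeq 550. Per the submitters' processing notes, the tools included cutadapt 2.9, STAR 2.6.1d and featureCounts 2.0 with GRCm38. The annotation release, the strand setting and the treatment of reads matching several places are not given in the sources used here. Genes with copies and overlapping genes are therefore uncertain: of 11773 present genes 2557 share over 10% of their words of 31 bases with other genes, and over more than 10% of their exons 1246 overlap another gene on the opposite strand and 282 on the same strand.

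CPM used the library total. TPM used the union of exons in GENCODE M21, which holds 55227 of the 55487 identifiers. Coordinates are GRCm38, 1-based. Shares are means ± SD, n = 3. The reads carry no molecular identifiers, so floors cover counting error only. Spread was estimated with edgeR 4.0.16 after filterByExpr (minimum count 10). The chi-square ratio and the length scaling were checked on simulated data, but the edgeR estimate was not. DESeq2 1.42.0 gave alternative size factors. No groups were compared and no test was run.

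The 55 gene lists and the members were chosen with earlier results of these data known. The rule names the 25 highest genes by CPM and by TPM, the 10 highest non-coding genes, the 10 largest coefficients of variation, and in each list up to 8 present members of highest TPM and those at 0 counts. It adds further genes, among them Cdh1, Epcam, Krt8, Krt18, Syp, Trp53, Rb1 and Myc. Other genes were named after their values were seen, and some that the rule names are not reported here.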

Additional observations from a re-analysis of the deposited data

How the results depend on the processing

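No paired analysis was possible because no groups were compared. The number of genes present was 11773 with TMM factors, with DESeq2 size factors and after filterByExpr, 12467 at 0.5 CPM, 11089 at 2 CPM, 12412 at 1 TPM, and 11838 to 11855 without a replicate. The top 100 genes took 19.2% of the counts without mitochondrial and ribosomal RNA genes and 19.2% to 19.5% without a replicate. The median coefficient of variation moved to 2.33% over genes of at least 100 CPM and to 2.37% to 2.64% without a replicate, since it then rests on 2 libraries. Of 55 lists, 4 moved by over 1.5 times at 2 CPM: Schwann cells, glia and melanocytes to 2 present, pluripotent and germ cells to 0, Hoxb to 4 and Hoxc to 1. Pluripotent and germ cells moved to 2 at 0.5 CPM. No list moved at 1 TPM or without a replicate. TPM depends on the length chosen. With the longest transcript 40 of 47 named genes moved by more than 1 SD, with the mean coding transcript 45 of 47, and 23 and 17 of the 25 genes of highest TPM stayed in that list. With the mean coding transcript 5545 of 11768 genes changed by over 1.5 times, so orders of TPM between genes that lie close are not firm. Depth limits calls below 0.152 CPM.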

Other observations

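Genes outside the lists, chosen after their values were seen, were also abundant. Il1rl1, the receptor of interleukin-33, had 1635, 1606 and 1569 CPM and ranked 37 by CPM and 140 by TPM. Its ligand gene Il33 was present at a far lower level, with 5.62, 3.53 and 4.42 CPM. Scd2, a fatty acid desaturase, had 2800.2, 2840.0 and 2860 CPM. Msln, which encodes mesothelin, a surface protein of mesothelium and several carcinomas, had 656, 632 and 653 CPM. Other genes of mesothelium stood at or near 0: Upk3b had 0, 1 and 0 counts, Lrrn4 0, 0 and 1, Upk1b none, and Wt1, named above, none. Cpe, carboxypeptidase E of secretory granules, averaged 544 ± 7.80 CPM, although the granule genes Chga, Scg2 and Scg3 had 0 counts.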
